A study of Canis lupus familiaris with 39 samples.

Results

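The collagen and laminin chains of 10 normal dog organs are described here from array measurements of RNA. The chains were chosen by name alone. A probeset, a group of short probes read out as 1 value, was taken when its only gene symbol was a collagen alpha chain (COL, a number, A, a number) or a laminin alpha, beta or gamma chain (LAMA, LAMB or LAMC and a number). This gave 130 probesets of 46 genes, out of 42860 probesets and 15115 genes with a symbol. Fibrillar collagens account for 29 probesets of 10 genes. The type IV collagens and laminins, called basement membrane chains below, account for 48 probesets of 16 genes, and 53 probesets of 20 genes are other collagens. Genes of these families with no probeset of their own under this rule were not analysed here.

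The study set out to describe gene expression in normal canine organs with Affymetrix Canine 2.0 arrays. The 39 arrays cover muscle of heart and limb (heart and skeletal muscle), digestive organs (jejunum, liver and pancreas), lymphoid organs (spleen and lymph node), and lung, kidney and brain, taken from the cerebrum. All are labelled as normal, with 4 arrays for each organ and 3 for pancreas. Per the methods, each of 4 dogs gave all 10 organs, so arrays of different organs share dogs. The dogs were 2 males and 2 females, of which 2 were beagles and 2 were mixed breed dogs, aged between 3 months and 6 years. The arrays of an organ are numbered 1 to 4 in the labels, which do not say which dog a number stands for. The main fit therefore does not pair organs by dog and treats all arrays as independent. A p-value here sets a difference between organ means against the spread of arrays within organs, pooled over the 10 organs. It takes in only that spread. Each array holds RNA of a whole piece of organ, in which fewer cells of a type and less RNA per cell cannot be told apart.

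Collagens are triple helices of 3 alpha chains. The fibrillar types, led by type I and type III, assemble into the rope-like fibrils that carry tension and are made mainly by fibroblasts and smooth muscle cells. Type IV collagen instead forms a sheet-like network, which together with the laminins, cross-shaped trimers of an alpha, a beta and a gamma chain, builds the basement membrane under epithelium and endothelium and around muscle and fat cells. Other collagens decorate fibrils, form beaded filaments, span the cell membrane or stand between basement membrane and stroma.

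The values are on the log2 scale, run from 2.61 to 14.74 and have array medians of 3.95 to 4.11, so that a value near 4 is typical for its array. A gene is represented by the probeset with the highest mean over the 39 arrays. Differences are given between organs for 1 probeset, never between probesets, and an organ is compared with the mean of the other 9 organ means, with limma and a false discovery rate of 0.001. Organ markers in each array matched the label, being above all arrays of other organs in every organ except spleen, where this held for 2 of 4 arrays. Some arrays also carried markers of a second organ. Array means of the 5 pancreas markers reached 5.79 in brain and 5.14 in lymph node. The mean of the 5 pancreas markers was above 6 in skeletal muscle arrays 1, 3 and 4, reaching 8.2 in array 4, against 3.74 in array 2. In brain the 4 skeletal muscle markers averaged 5.45 in array 1 and 7.08 in array 3, against 3.77 and 3.78 in arrays 2 and 4. A fit without these 5 arrays, which leaves skeletal muscle with a single array that is assumed to vary like the other organs, was added after the values were seen, and of the 40 calls of a gene in an organ 33 passed in it, including all 12 in lung but 0 of 4 in brain and 0 of 2 in skeletal muscle.

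A larger share of basement membrane genes than of fibrillar collagen genes was called among organs, a difference in counts that was not tested. In the F test over the 10 organs, 11 of 16 basement membrane genes were called. This compares with 4 of 10 fibrillar genes (COL27A1, set apart below, included), 8 of 20 other collagens and 60.9% of all genes. Counted as probesets, 49 of 130 (37.7%) were called, below the 54.6% of all probesets. Of the 130 probesets, 54 had an organ mean above 5, and 39 of these were called. Among genes with an organ mean above 5, all 11 basement membrane genes and 4 of 7 fibrillar genes (COL27A1 included) passed. Of the 8803 such genes on the array 84.5% did. This filter keeps a gene by its highest organ mean and so favours genes that differ among organs, and no conclusion is drawn from these shares.

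The brighter fibrillar genes that did not pass (COL1A1, COL3A1 and COL5A1) were not flat. Their organ means lay apart, and so did the arrays within an organ. For genes with an organ mean above 5, the median SD between arrays of an organ, pooled over organs, was 1.14 for fibrillar collagens, 0.72 for basement membrane chains and 0.39 for all genes. The median range of organ means was 4.78, 3.68 and 2.27 for the same groups. Choosing genes by their highest organ mean favours wide ranges. The fibrillar group includes COL27A1, which has the median SD of 1.14 itself and a range of 9.17. The ranges of the others were 0.92 (COL11A2), 2.15 (COL5A1), 2.93 (COL1A1), 4.78 (COL5A2), 4.86 (COL1A2) and 5.63 (COL3A1). COL3A1 had the highest pooled SD of the 46 genes (1.68), followed by COL1A1 (1.58) and COL1A2 (1.42).

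**Figure D1:**
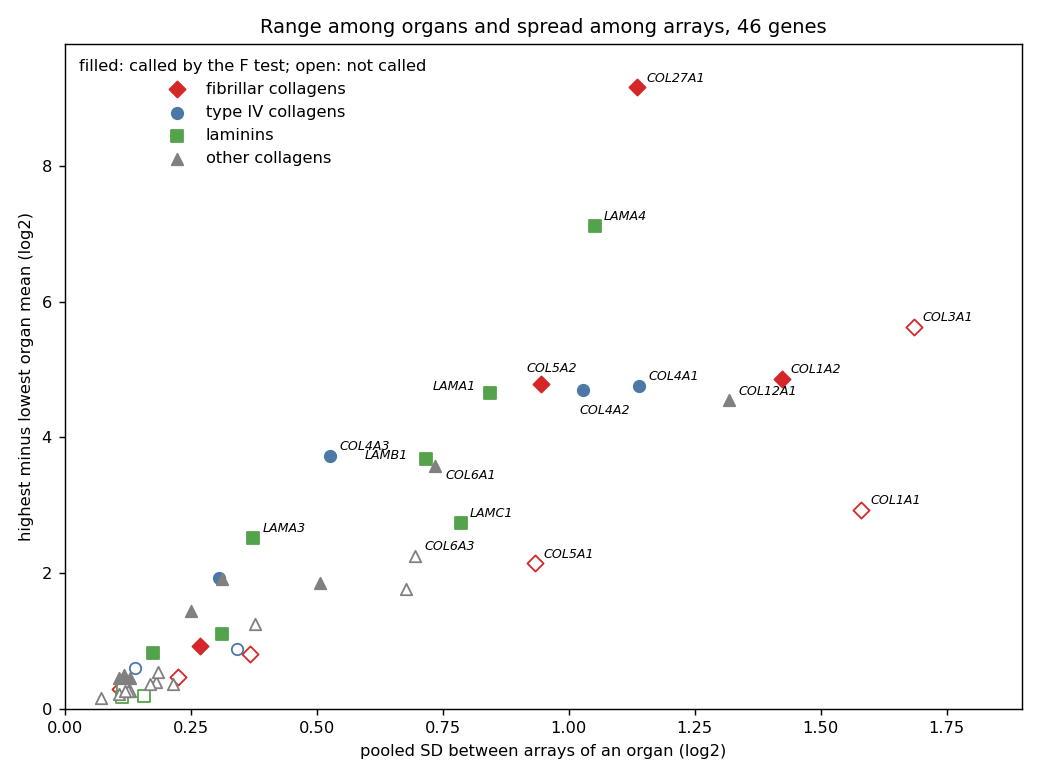
Difference between the highest and the lowest organ mean (vertical axis, log2) against the pooled SD between arrays of an organ (horizontal axis, log2) for the 46 genes, with filled symbols for genes called by the F test over organs. COL3A1, COL1A1 and COL5A1, with an SD of 1.68, 1.58 and 0.93, lie open on the right, while COL4A3 and LAMA3 are filled at an SD of 0.53 and 0.37.

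COL1A1 encodes the alpha 1 chain of type I collagen, the main fibril of tendon, bone and scar. Its normalized values were 9.39, 12.02, 9.71 and 9.08 in lung, 12.32, 12.69, 8.2 and 6.82 in skeletal muscle, and 9.07, 9.76, 9.32 and 9.79 in jejunum. In kidney, the organ with the lowest mean, they were 7.76, 8.50, 6.92 and 5.29. The 4 skeletal muscle arrays therefore spanned more of the scale than the 10 organ means, which ran from 7.12 in kidney to 10.05 in lung, and they overlapped the kidney arrays. The F test called none of the 3 COL1A1 probesets (adjusted p = 0.075 for the one given) and none of the 45 pairs of organs was called, against 14.1% over all probesets and pairs.

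COL1A2, the partner chain in type I collagen, was called among organs (adjusted p = 7.9e-04). Its arrays read 10.80, 12.10, 10.65 and 10.78 in lung and 10.17, 11.62, 9.83 and 10.68 in spleen, against 7.04, 6.84 and 4.78 in pancreas. Lung and spleen lay wholly above pancreas, and the difference between lung and pancreas was 4.86 (SE 1.05, adjusted p = 3.3e-04). Brain arrays ranged from 4.29 to 9.52 and skeletal muscle arrays from 7.04 to 12.64. Of the 45 pairs, lung against pancreas and lung against brain were called, and without the 5 arrays named above 9 pairs were.

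COL3A1, the chain of type III collagen, which is abundant in distensible organs such as lung, gut and vessels, had the widest range of the fibrillar collagens apart from COL27A1. Its values were 10.74, 12.54, 10.59 and 9.45 in lung, against 4.63, 7.34, 4.08 and 4.74 in brain, with no overlap, a difference of 5.63 and an adjusted p of 2.2e-04. Jejunum (9.67 ± 0.77, SD, n = 4) and heart (9.51 ± 1.65) came next. The difference between lung and jejunum did not pass (1.16, SE 1.15, adjusted p = 0.56). Against the mean of the other 9 organs the lung mean was 3.05 higher, and this did not pass in the main fit. It did when the array number, which the labels do not tie to a dog, was added to the fit (3.12, adjusted p = 6.3e-05). Another COL3A1 probeset, at 6.60 ± 0.45 in lung and 4.68 in jejunum, was called in lung (difference 2.68, adjusted p = 6.3e-09).

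Type V collagen sits inside type I fibrils and sets their diameter, and of its 3 chains on the array COL5A2 was called, higher in lung and lower in kidney. COL5A2 was at 8.67, 9.93, 8.52 and 8.44 in lung, 8.52-fold above the mean of the other 9 organs (5.80, adjusted p = 7.0e-06). In kidney it was at 4.56, 4.07, 4.06 and 3.91, a fall of 2.18 against the mean of the others (adjusted p = 8.0e-04). Kidney and lung did not overlap. The kidney call was lost when any 1 kidney array was left out (adjusted p of 0.0023 to 0.0066). COL5A1 had the same highest and lowest organs (6.60 ± 1.25 in lung and 4.45 ± 0.38 in kidney) but was not called (adjusted p = 0.051). COL5A3 stayed between 3.61 in lung and 4.42 in brain and was not called.

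Of the fibrillar collagens known from cartilage, COL2A1 was dim in all organs (organ means of 3.49 to 3.96). Its skeletal muscle mean rests on arrays that stand apart, and in the fit with array 2 alone for that organ it was 1.13 above the other 9. A single array has no spread of its own. COL24A1 was dim throughout (3.02 to 3.31). COL11A2, a chain of the thin fibrils of cartilage, was called in brain, at 5.89, 5.13, 4.54 and 4.89 against a mean of 4.42 in the other 9 organs (difference 0.70, adjusted p = 1.4e-04). The brain arrays overlapped those of pancreas (5.33, 4.68 and 5.21). Both COL11A2 probesets were called by the F test, but only the one given had brain as its highest organ. Without brain array 1 the difference was 0.44 (adjusted p = 0.0082), and without brain array 2 it was 0.69 (adjusted p = 0.0011), so the call was lost with either array left out, and the difference was smaller without array 1. Scaling to housekeeping genes, described below, also ended it (0.17).

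**Figure D2:**
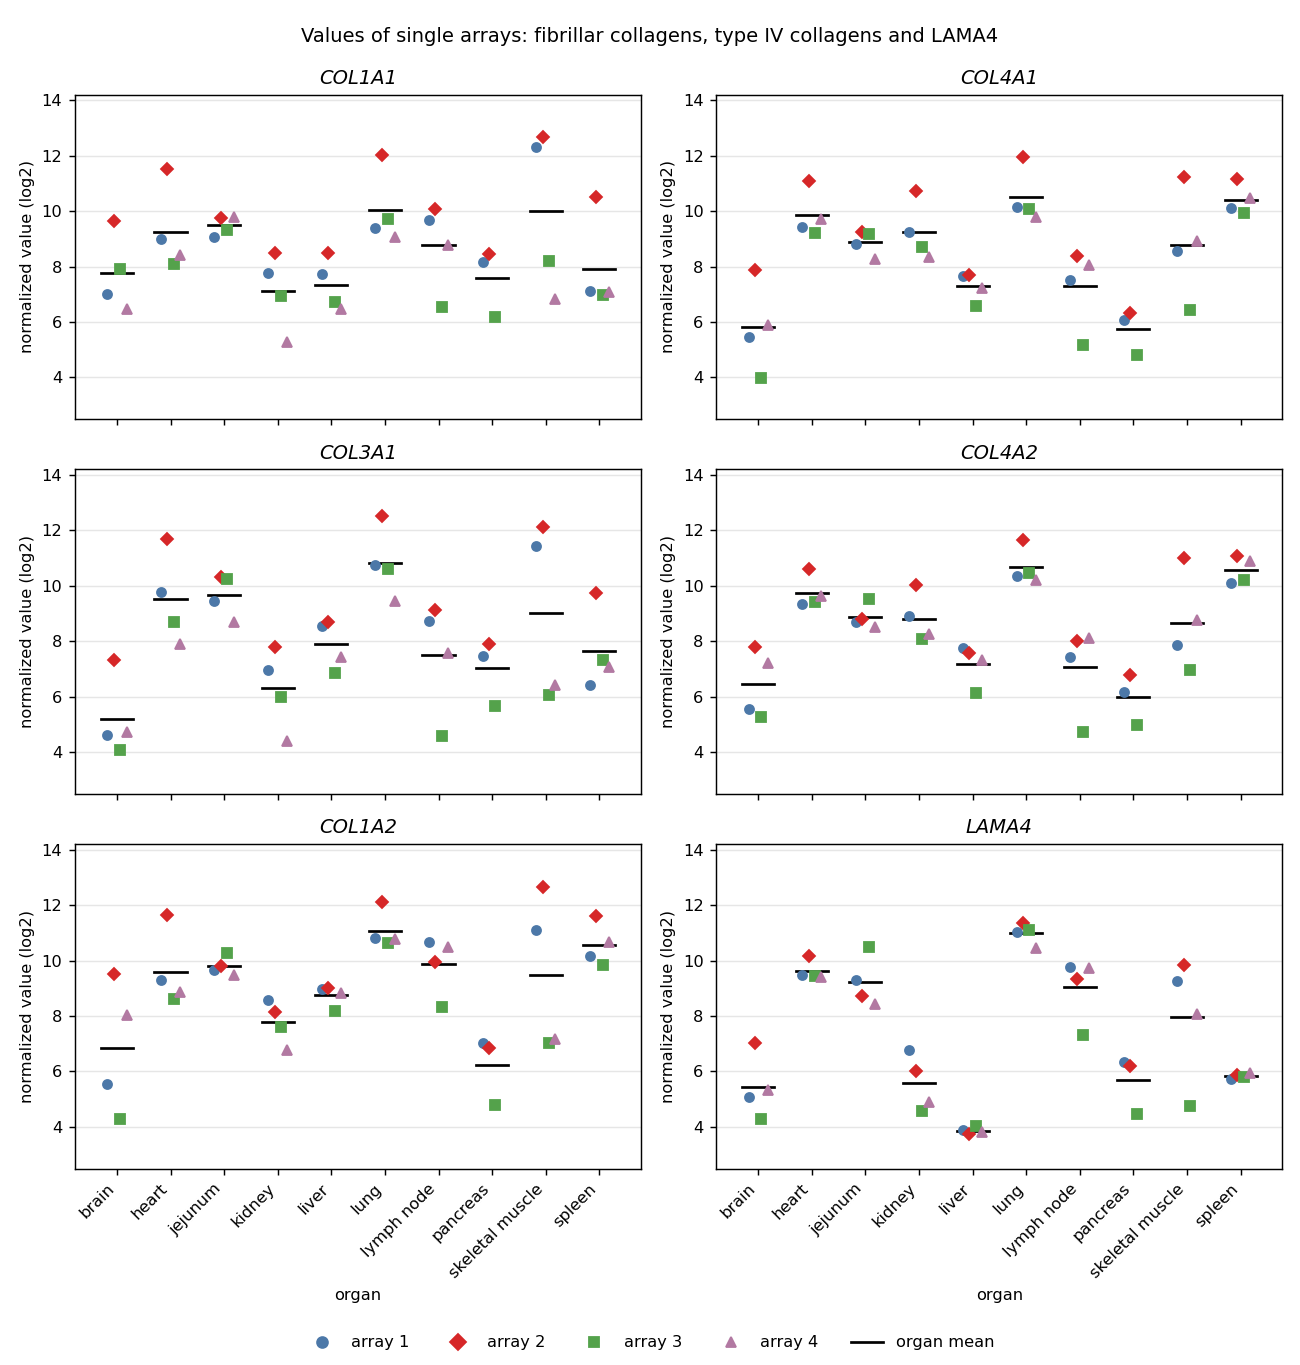
Normalized value (log2, vertical axis) of every array by organ for COL1A1, COL3A1, COL1A2, COL4A1, COL4A2 and LAMA4, with symbols for the array number and a line at the organ mean. Array 2 (red diamonds) is the highest in all 10 organs for COL3A1 and COL4A1, and the 4 liver arrays of LAMA4 lie at 3.74 to 4.02, below all other arrays.

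COL27A1, a fibrillar collagen of cartilage, was an exception in pattern and in size. Its brightest probeset read 13.33, 13.59, 13.78 and 13.43 in liver and 13.21, 13.27, 13.04 and 13.32 in lung, while the other organ means were 4.37 to 6.53. Liver was 217-fold and lung 169-fold above the mean of their other 9 organs (adjusted p = 1.1e-12 and 9.7e-12). A second probeset shared the pattern, with 12.88 ± 0.41 in liver and 12.57 ± 0.16 in lung. The other 3 COL27A1 probesets had no organ mean above 4.38. A further probeset with no symbol, whose name differs from that of the second only in its ending, was at 13.25 in liver, 12.85 in lung and 3.15 to 4.06 elsewhere. In RefSeq, KIF12 lies before COL27A1, and LOC100685620 and then AKNA lie after it. Which transcript the 2 bright probesets bind was not tested, so the class averages of the fibrillar collagens are given without COL27A1, and with it only where this is said. Heart arrays were also scattered in the first probeset, at 7.20, 10.09, 4.59 and 4.24.

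COL4A1 and COL4A2 encode the chains of the common type IV network of nearly all basement membranes, and in RefSeq they are neighbours. Both were highest in lung and spleen, followed by heart, and lowest in pancreas and brain. COL4A1 was at 10.16, 11.95, 10.08 and 9.81 in lung and 10.11, 11.15, 9.93 and 10.48 in spleen, against 6.09, 6.32 and 4.81 in pancreas and 5.46, 7.89, 3.97 and 5.91 in brain. Neither lung nor spleen overlapped pancreas or brain. Lung did not pass against the other 9 in the main fit, but it did on the housekeeping scale described below (difference 2.01, adjusted p = 5.4e-04). It also did with the array number added to the fit (2.36, adjusted p = 1.1e-05). The fall against the mean of the other 9 organs was 2.94 in pancreas (adjusted p = 5.0e-04) and 2.86 in brain (adjusted p = 1.8e-04). The pancreas call was lost when any 1 pancreas array was left out (adjusted p of 0.0018 to 0.015), and the brain call without brain array 1, 3 or 4 (adjusted p of 0.0017, 0.0063 and 0.0011). Without the 5 arrays named above the brain difference was -2.04 and did not pass (adjusted p = 0.018).

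COL4A2 was called higher in lung (10.67 ± 0.67 against 8.15, adjusted p = 3.9e-04) and in spleen (10.57 ± 0.50 against 8.17, adjusted p = 7.4e-04), and lower in pancreas (5.98 ± 0.90 against 8.68, adjusted p = 4.2e-04). Its arrays were 10.37, 11.67, 10.46 and 10.20 in lung and 6.16, 6.78 and 5.0 in pancreas. Lung and spleen differed by 0.10 (SE 0.70, adjusted p = 0.98). The lung call was lost when any 1 lung array was left out (adjusted p of 0.0013 to 0.0070, differences of 2.19 to 2.68), the spleen call without any 1 spleen array (adjusted p of 0.0022 to 0.0077) and the pancreas call without pancreas array 1 or 3 (adjusted p of 0.0032 and 0.016). All 3 COL4A1 and both COL4A2 probesets were highest in lung.

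The chains of the special networks behaved differently. COL4A3 and COL4A4 form, with COL4A5, the type IV network of the mature glomerular and alveolar basement membrane. COL4A3 was at 6.04, 7.27, 6.53 and 8.35 in kidney and 6.13, 6.91, 6.16 and 4.44 in lung. The 3.25 difference in kidney (SE 0.27) and the 1.98 in lung both passed (adjusted p = 1.8e-11 and 7.4e-07). In the other organs the means were 3.32 to 3.79. Kidney and lung overlapped, and their difference of 1.14 did not pass (SE 0.36, adjusted p = 0.021). Brain array 1 (4.74) lay above the lowest lung array.

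The brightest COL4A4 probeset was flat, with organ means of 4.32 to 4.92, the lowest in spleen (a fall of 0.36, adjusted p = 4.6e-04, lost without any 1 spleen array at 0.0019 to 0.0051). Of its other probesets, 1 read 5.37, 6.82, 5.53 and 4.75 in kidney and 4.67, 4.81, 4.39 and 3.99 in lung (kidney difference 1.75, adjusted p = 4.5e-10). Another read 4.93, 5.40, 4.58 and 5.30 in kidney (difference 1.53, adjusted p = 4.6e-14). In both, kidney was the highest organ and lung the next, as for COL4A3, the gene beside it in RefSeq. COL4A5 was dim (3.54 to 4.42) and not called, and its lung arrays were 3.86, 5.92, 4.06 and 3.83.

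COL4A6, which pairs with COL4A5 in basement membranes of smooth muscle and some epithelia, was called in lung (5.15, 6.27, 5.47 and 4.56) and jejunum (4.95, 4.75, 5.15 and 4.02). Lung was 3.02-fold and jejunum 1.84-fold above the mean of the other 9 (adjusted p = 1.7e-09 and 6.7e-05). These arrays overlapped, and the difference between lung and jejunum did not pass (0.65, SE 0.21, adjusted p = 0.028). The jejunum call was lost without jejunum array 1 or 3 (adjusted p of 0.0015 and 0.0023). Smooth muscle markers, led by MYH11, the heavy chain of smooth muscle myosin, were also high in these organs, with array means of 8.47 to 9.14 in lung and 9.21 to 11.21 in jejunum. In spleen these markers were at 8.50 to 9.61 and COL4A6 was at 3.32 to 3.69. The part of smooth muscle in the COL4A6 values was not tested.

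Laminin alpha chains carry the receptor-binding end of the trimer, and the bright ones were called in different sets of organs. LAMA4, the alpha chain of vessel, fat and muscle basement membranes, ranged most, from 3.87 in liver to 10.99 in lung. The lung arrays were at 11.04, 11.36, 11.09 and 10.47 and the heart arrays at 9.49, 10.15, 9.44 and 9.40, against 3.90, 3.74, 4.02 and 3.82 in liver. Liver lay below every array of every other organ. Lung was 16.8-fold above the mean of the other 9 (adjusted p = 4.3e-07) and heart 5.86-fold (adjusted p = 3.6e-04), while liver fell by 3.84 (adjusted p = 8.7e-07). The lung and liver calls passed without any 1 array of these organs, but the heart call was lost when any 1 heart array was left out (adjusted p of 0.0017 to 0.0041).

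Jejunum (9.23 ± 0.91), lymph node (9.04 ± 1.16) and skeletal muscle (7.98 ± 2.27) were not called for LAMA4. In skeletal muscle its values were 9.27, 9.82, 4.75 and 8.08. Adipocyte markers averaged 4.20 to 8.23 over the lymph node arrays, and their part in the LAMA4 values there was not tested. Lung exceeded heart by 1.37, which did not pass (SE 0.72, adjusted p = 0.17). All 4 LAMA4 probesets had lung as the highest organ. Kidney (5.57) and spleen (5.84), both called for other chains of this family, were low for LAMA4, so that the pattern differed from that of COL4A1.

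LAMA1, the alpha chain of embryonic and some renal basement membranes, was bright in a pair of organs. Its values were 7.91, 9.15, 8.45 and 8.51 in spleen and 7.43, 6.92, 9.21 and 9.15 in kidney, against 3.71 to 3.97 in lymph node and 3.66 to 4.06 in skeletal muscle. All 8 arrays of spleen and kidney lay above those of the other 8 organs, of which lung array 2 was highest at 6.79. Spleen was 9.35-fold and kidney 7.26-fold above the mean of the other 9 (adjusted p = 6.1e-07 and 3.6e-06). Lymph node and skeletal muscle fell by 1.94 and 1.92 (adjusted p = 5.8e-04 and 7.3e-04). Both calls were lost when any 1 array of the organ was left out (adjusted p of 0.0025 to 0.0056 in the 8 fits), and with skeletal muscle array 2 alone the difference was -1.90. The other 2 LAMA1 probesets had no organ mean above 4.38 and did not show this pattern.

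LAMA3, the alpha chain of epithelial laminins, was high in lung (6.44, 6.16, 6.78 and 6.44) and jejunum (5.51, 7.05, 5.15 and 7.03). The differences were 1.93 in lung and 1.63 in jejunum (adjusted p = 1.9e-09 and 5.1e-08). A second LAMA3 probeset gave 8.81, 8.25, 8.69 and 8.48 in lung and 7.78, 9.33, 7.99 and 8.83 in jejunum, and the next organ was spleen, at 5.13 ± 0.72. In both probesets the lung and jejunum arrays overlapped each other. Kidney was lowest, at 3.84 to 4.06 in the first probeset (a fall of 0.87, adjusted p = 8.2e-04), a call lost without any 1 kidney array (adjusted p of 0.0027 to 0.0064) and without the 5 arrays named above (adjusted p = 0.0021). LAMA5 was dim in its single probeset (3.67 to 3.85).

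Among the beta chains, LAMB1, the beta chain of most early and vascular laminins, was highest in kidney (8.61, 9.0, 8.83 and 8.65) and heart (8.18, 9.28, 8.35 and 8.41). Liver was lowest at 5.32, 5.46, 4.71 and 4.87, without overlap with either. Kidney was 3.63-fold and heart 3.07-fold above the mean of the other 9 (adjusted p = 2.0e-04 and 8.4e-04), and liver fell by 2.23 (adjusted p = 1.3e-05). Spleen (8.36 ± 0.40) and lung (8.27 ± 0.55) were close behind and not called. Without kidney array 2, 3 or 4 the kidney call was lost (adjusted p of 0.0022, 0.0016 and 0.0012), and so was the heart call without any 1 heart array (adjusted p of 0.0021 to 0.013).

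The brightest LAMB2 probeset, for the beta chain of neuromuscular, glomerular and arterial laminins, differed little, with a fall of 0.77 in brain (6.78, 6.45, 6.02 and 6.21 against a mean of 7.14, adjusted p = 2.6e-04). Its other 9 organ means were 6.75 to 7.47. This call was lost without brain array 2, 3 or 4 (adjusted p of 0.0011 to 0.0057) and without the 5 arrays named above (-0.85, adjusted p = 0.0031). Another LAMB2 probeset had a wider range, with 8.88 ± 0.41 in heart, 8.80 ± 0.27 in lung and 8.28 ± 1.19 in skeletal muscle, against 4.03 ± 0.27 in pancreas. It was called higher in heart (difference 2.33, adjusted p = 1.8e-04) and lung (2.24, adjusted p = 3.4e-04). LAMB2 therefore depends on the probeset read. LAMB3, the beta partner of LAMA3 in epithelial laminin, followed that chain in its organs, at 5.13, 4.96, 5.14 and 5.54 in lung and 4.92, 5.10, 4.94 and 5.40 in jejunum (differences of 0.62 and 0.50, adjusted p = 4.1e-06 and 1.1e-04). Without jejunum array 4 the jejunum call was lost (0.40, adjusted p = 0.0046). LAMB4 was dim everywhere (3.39 to 3.70).

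LAMC1, the gamma chain shared by most laminins, was highest in heart (6.52, 7.48, 6.39 and 6.44), 3.69-fold above the mean of the other 9 (adjusted p = 4.3e-04). The heart arrays overlapped those of lung (4.76, 7.49, 5.05 and 5.86) and skeletal muscle (4.28, 7.27, 4.38 and 5.63), in both of which array 2 alone was above 7. The call was lost when any 1 heart array was left out (adjusted p of 0.0015 to 0.0076). LAMC3 was dim (3.53 to 3.72).

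**Figure D3:**
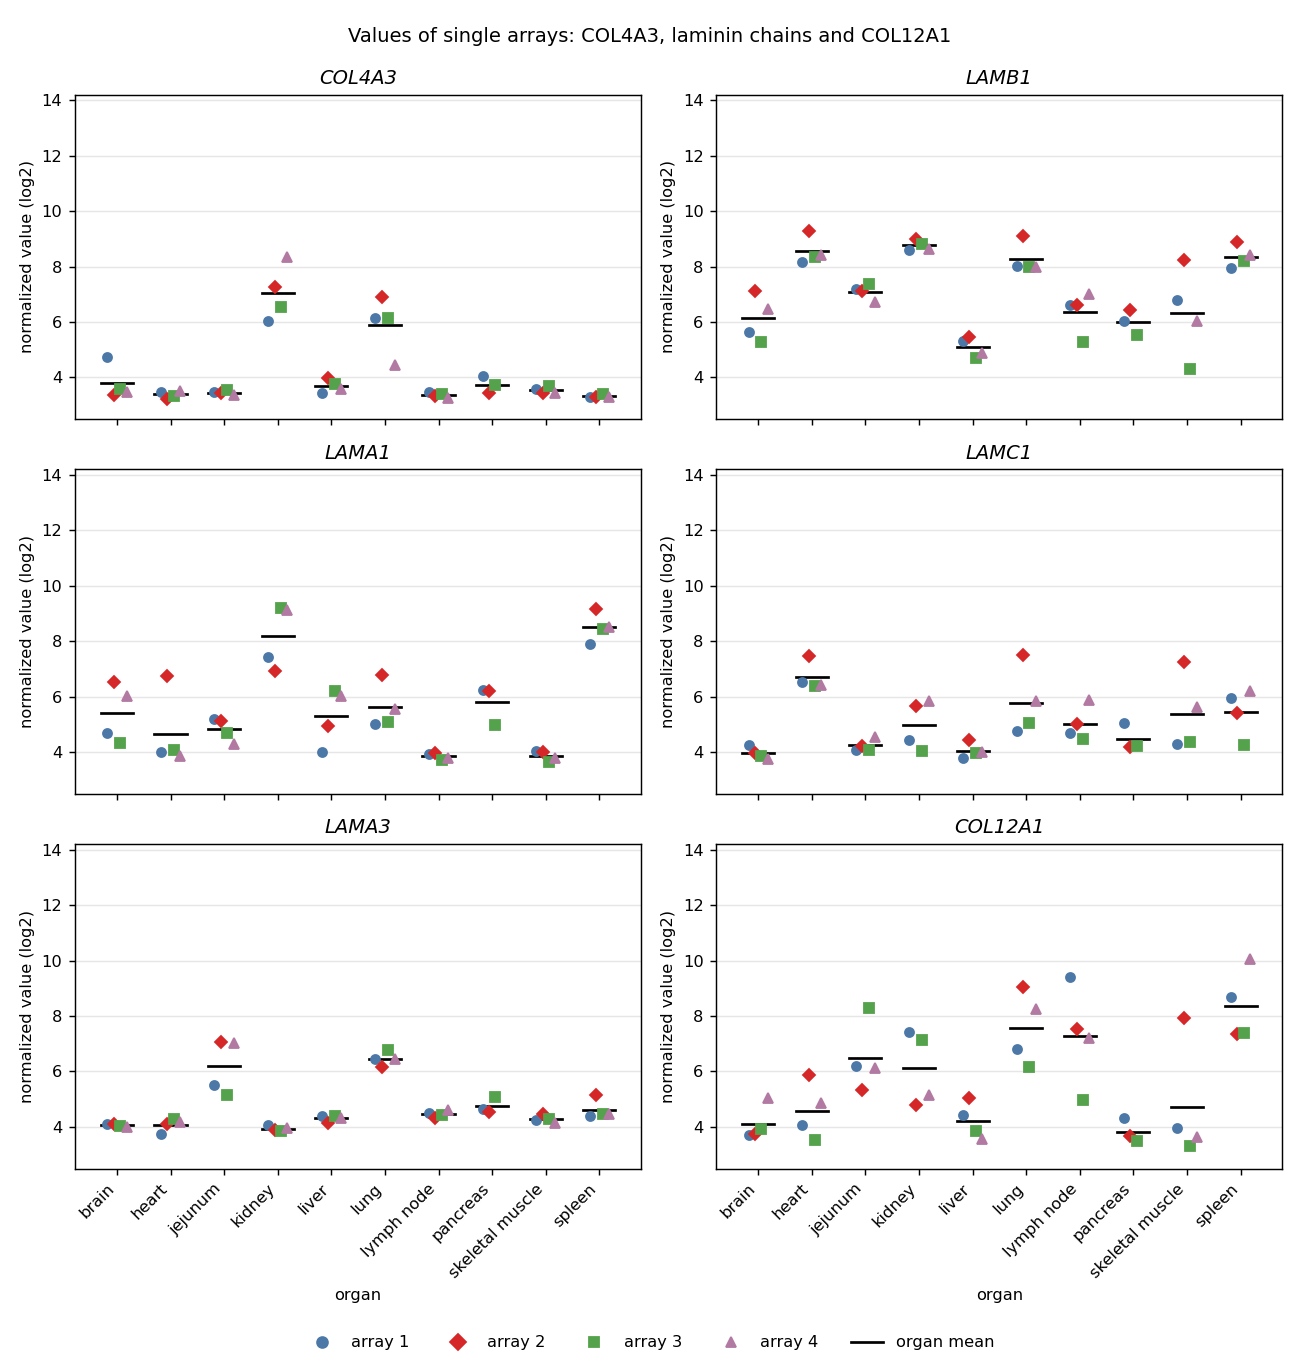
Normalized value (log2, vertical axis) of every array by organ for COL4A3, LAMA1, LAMA3, LAMB1, LAMC1 and COL12A1, with symbols for the array number and a line at the organ mean. LAMA1 stands apart in kidney and spleen, LAMA3 in jejunum and lung, and COL4A3 in kidney and lung, while COL12A1 scatters within most organs.

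Of the other collagens, COL6A1 and COL6A3 of type VI, which forms beaded filaments around cells, were highest in lung. The third type VI gene, COL6A6, was dim and had its highest mean in pancreas (3.88). COL6A1 was at 7.76, 9.09, 7.27 and 7.48 in lung, 5.91-fold above the mean of the other 9 organs (adjusted p = 2.5e-06), and in skeletal muscle at 4.54, 8.30, 5.33 and 5.80. Lung overlapped skeletal muscle only through array 2 of that organ. COL6A3 was at 4.98, 7.81, 4.93 and 5.65 in lung, where it passed (3.06-fold, adjusted p = 7.5e-04). The F test over organs did not call COL6A3 (adjusted p = 0.0049), and only 1 of its 3 probesets was highest in lung. Without lung array 2 its difference of 1.61 dropped to 0.96 (adjusted p = 0.034), and without lung array 4 the adjusted p was 0.0029.

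COL12A1, a collagen that binds to the surface of type I fibrils, differed among organs by the F test (adjusted p = 9.4e-05) but was called in no single organ. Its arrays were 8.69, 7.36, 7.39 and 10.07 in spleen, 6.80, 9.05, 6.18 and 8.25 in lung, and 9.42, 7.53, 4.97 and 7.20 in lymph node. These organs overlapped each other, and only spleen against brain, liver and pancreas passed among the pairs. Spleen against the other 9 passed with a variance trend (adjusted p = 7.6e-04) and with dim probesets left out (adjusted p = 4.5e-04). In skeletal muscle, array 2 was at 7.93 and the other arrays at 3.32 to 3.95.

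COL16A1 and COL13A1 were highest in lung. COL16A1, a fibril-associated collagen, was at 5.48 ± 0.09 in lung (difference 1.42, adjusted p = 2.5e-08), overlapped by brain array 2 at 5.45. COL13A1, a transmembrane collagen, was at 4.60, 6.05, 5.05 and 4.66 in lung, above every other array (highest 4.20, in lymph node), with a difference of 1.34 (adjusted p = 1.2e-09). COL14A1, another fibril-associated collagen, had its highest mean in lung (6.28) and its lowest in brain (4.43) and passed in no single organ, but it did in lung without the 5 arrays named above (difference 1.03, adjusted p = 5.6e-06). COL15A1, which links basement membrane to stroma in muscle and vessels, reached 5.77 ± 0.55 in heart, 5.71 ± 1.75 in skeletal muscle and 5.51 ± 0.45 in jejunum, against 4.01 ± 0.08 in spleen, and was not called by the F test (adjusted p = 0.0018).

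COL25A1, a transmembrane collagen of neurons, was at 5.27, 4.23, 6.26 and 3.78 in brain and below 4.23 on all other arrays. The 2.18-fold difference passed (adjusted p = 1.9e-05). The F test over organs called none of the 3 COL25A1 probesets (adjusted p = 0.0028 for the one given), and only 1 of them was highest in brain. The brightest brain arrays, 1 and 3, are also those with skeletal muscle markers. Without the 5 arrays named above the difference was 0.22 (adjusted p = 0.11), and COL25A1 had a mean of only 3.64 in the skeletal muscle arrays themselves. The part of the foreign markers in the call was not tested. Of the remaining 12 other collagens, COL6A6 was called in skeletal muscle (3.87, difference 0.31, and 0.27 for array 2 alone), COL23A1 in jejunum (4.15, difference 0.39) and COL19A1 was lower in pancreas (3.44, a fall of 0.30). The COL6A6 call was lost without array 1, 2 or 4 of its organ (adjusted p of 0.0016 to 0.022) and that of COL19A1 without pancreas array 1 or 3 (0.0097 and 0.027). The other COL19A1 probeset ran the opposite way, being called higher in pancreas (3.91, difference 0.28, adjusted p = 7.0e-04). All 12 had organ means below 4.4.

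Read by organ, lung held more calls than any other, 12 of the 40. There 27 of the 130 probesets (20.8%) were higher, against 7.26% of all probesets, and 0 were lower, against 4.22%. As genes these were 12 of 46, namely COL5A2 and COL27A1, COL4A2, COL4A3 and COL4A6, LAMA3, LAMA4 and LAMB3, and COL6A1, COL6A3, COL13A1 and COL16A1. The median difference over the 46 genes was 0.41 in lung, against -0.07 for all genes, and it was at most 0.07 in any other organ. Arrays were also scaled to equal medians of 13 housekeeping genes, which moved every difference of an organ by 1 constant, from -0.64 in jejunum and -0.34 in lung to 1.77 in pancreas. Of these 13 genes, 10 were themselves called by the F test and 5 were called lower in pancreas (median difference -0.69). This scale is therefore not a neutral reference. Leaving out 1 lung array at a time, 10 of the 12 passed every time, all but COL4A2 and COL6A3. Of the 12 lung calls 7 still passed on that scale and 0 turned direction, and relative to the constant all differences are the same. The 8 endothelial markers moved along, 7 of them being called higher in lung with array means of 7.53 to 8.37, against 5.03 to 7.06 in all other organs. Fibroblast markers averaged 6.27 to 6.68 in lung and at most 6.42 elsewhere, with 3 of 8 called higher in lung and 3 of 8 in heart. Of the 8 smooth muscle markers 5 were called higher in lung, with a median difference of 2.38. This was not particular to lung, as 6 were called higher in jejunum (median difference 2.97) and 5 in spleen (2.83). Their part in the lung result was not tested.

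Heart calls were laminins. Of the 33 laminin probesets 12 were higher in heart (36.4%), and no collagen probeset was, so that 9.23% of all member probesets were called higher against 7.47% of the array. The genes were LAMA4, LAMB1 and LAMC1, which together form a laminin of vessel walls, and 0 of these 3 calls held when any 1 heart array was left out. A single laminin probeset (0.769% of the members) was lower, against 6.55% of the array. Liver had the opposite list, with 8 laminin probesets lower (6.15% of the members, the same as the 6.15% of the array) and only 2 of COL27A1 higher (1.54%, against 6.72%).

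Kidney and jejunum had smaller shares of probesets called than the array as a whole. In kidney 8 probesets were higher (6.15%, against 7.41%), 4 of type IV collagens and 4 of laminins, with COL4A3, LAMA1 and LAMB1 as genes. Another 4 were lower (3.08%, against 3.94%), among them those of COL5A2 and LAMA3. In jejunum 5 probesets were higher (3.85%, against 6.12%) and 1 lower (0.769%, against 3.85%). The genes were LAMA3, LAMB3, COL4A6 and COL23A1. On the housekeeping scale 0 of these 4 passed in jejunum, and LAMB3 and COL23A1 turned direction. Without the 5 arrays named above, 19 probesets were called in kidney in place of 12.

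In spleen 3 probesets were higher (2.31%, against 5.38%), among them LAMA1 and COL4A2, and 2 were lower (1.54%, against 4.83%). In brain 3 were higher (2.31%, against 11.2%) and 8 lower (6.15%, against 7.74%), of which 7 are of basement membrane chains. Against these 11 probesets, the count was 4 without brain array 3 and 3 without the 5 arrays named above, where none of the 4 genes called in brain (COL11A2, COL25A1, COL4A1 and LAMB2) passed. Without those 5 arrays brain keeps only arrays 2 and 4. The brain differences were then 0.59 for COL11A2, 0.22 for COL25A1, -2.04 for COL4A1 and -0.85 for LAMB2. The part of the smaller number of brain arrays in the lost calls was not tested. In pancreas 10 were higher (7.69%, against 13.4%) and 8 lower (6.15%, against 11.1%), but by genes only COL4A1, COL4A2 and COL19A1, all lower, were called, and none of these 3 passed without pancreas array 1 or without array 3. On the housekeeping scale 0 of these 3 passed and COL19A1 turned direction. Without the 5 arrays named above 28 pancreas probesets were called in place of 18, and 12 spleen probesets in place of 5. Skeletal muscle had 2 higher (1.54%, against 7.06%) and 3 lower (2.31%, against 8.14%), and lymph node 0 higher (against 9.95%) and 2 lower (1.54%, against 6.93%).

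**Figure D4:**
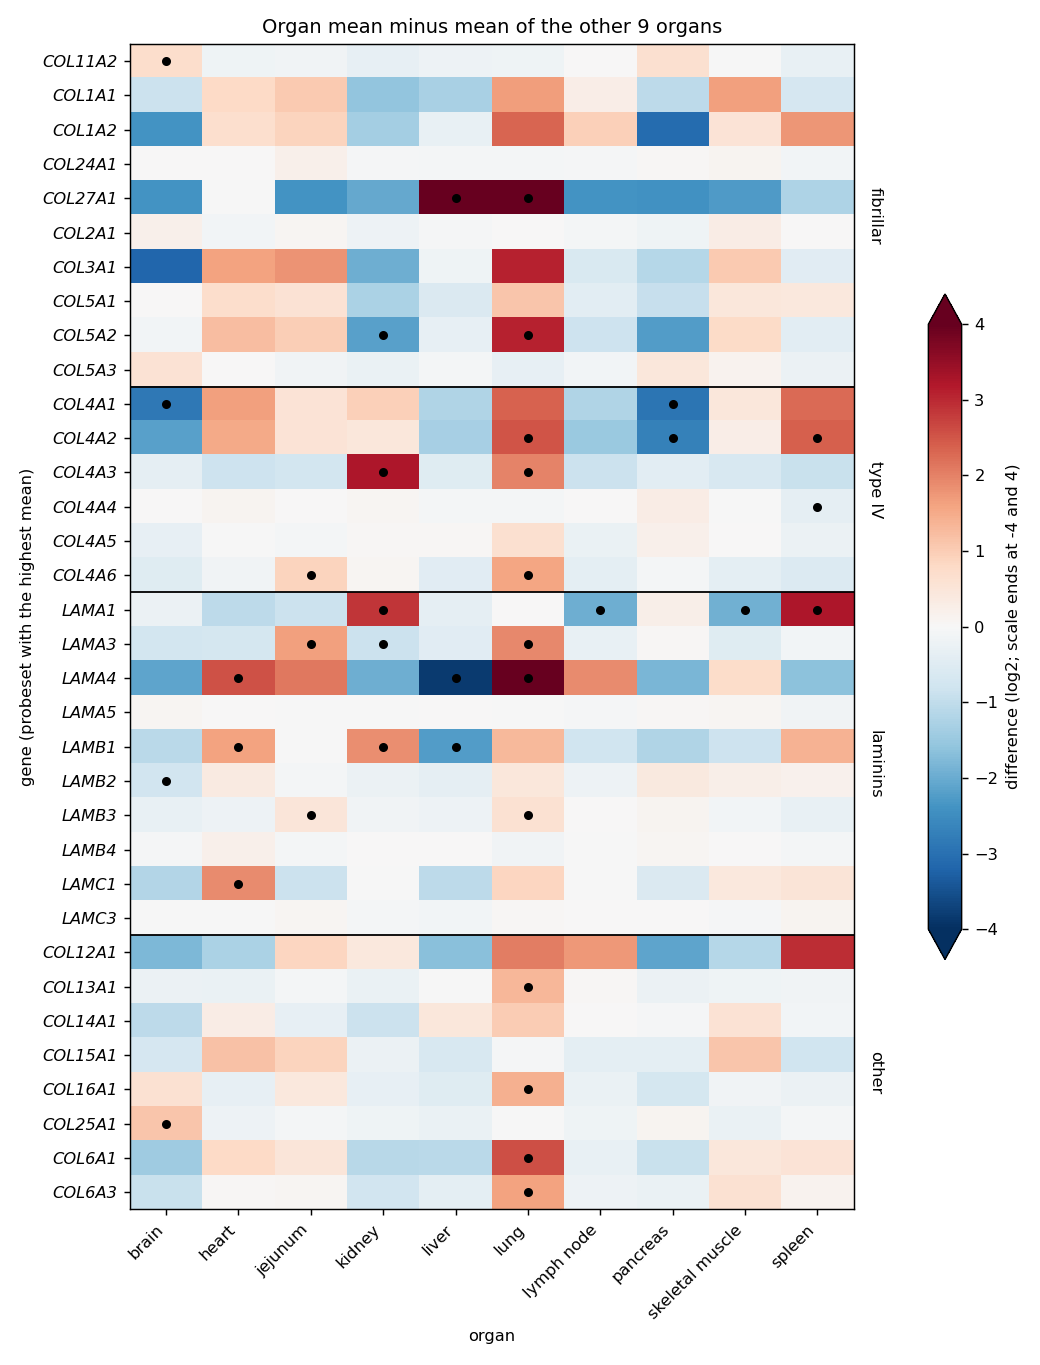
Organ mean minus the mean of the other 9 organs (colour, log2, with the scale ending at -4 and 4) for the 34 named genes in rows and the 10 organs in columns, with a dot where the difference was called at a false discovery rate of 0.001. The lung column holds 12 dots, the brain and pancreas columns are blue for COL4A1 and COL4A2, and liver is blue for LAMA4 and LAMB1.

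Fibrillar collagens and basement membrane chains were high or low together in some organs and parted in others. To set the classes side by side, each gene was centred on the mean of its 10 organ means and averaged over the 9 fibrillar genes without COL27A1 and over the 16 basement membrane genes, with no test. Both averages were highest in lung, at 1.07 ± 0.59 (SD, n = 4 arrays) for fibrillar collagens and 1.02 ± 0.41 for basement membrane chains. Both were low in brain (-0.50 ± 0.58 and -0.70 ± 0.34) and pancreas (-0.74 ± 0.35 and -0.47 ± 0.27, n = 3).

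Kidney was where the classes parted. Its fibrillar average was the lowest of all organs (-0.92 ± 0.47), while its basement membrane average was above 0 (0.35 ± 0.14), as in heart (0.39) and spleen (0.33). This positive average was not shared by the whole class. Over the 16 basement membrane genes the median kidney difference was 0.03, with 3 called higher and 1 lower. The 8 fibroblast markers also had their lowest median difference there (-0.90), with array means of 3.83 to 4.17, although 0 of them were called. Their part in the kidney value was not tested. The fibrillar minus basement membrane difference was -1.28 ± 0.46 and lay between -1.93 and -0.89 in the 4 kidney arrays, below all arrays of the other organs, of which the lowest was a skeletal muscle array at -0.68. Spleen had a smaller difference of the same sign (-0.33 ± 0.38), with 1 array at 0.22. Liver had the opposite one (0.36 ± 0.31, arrays from 0.03 to 0.63), with a low basement membrane average of -0.68 ± 0.05. With COL27A1 included, the liver value was 1.09 and the lung value 0.61 in place of 0.05. In skeletal muscle the difference was 0.63 ± 1.13 and its sign changed between arrays, from -0.68 to 1.64.

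**Figure D5:**
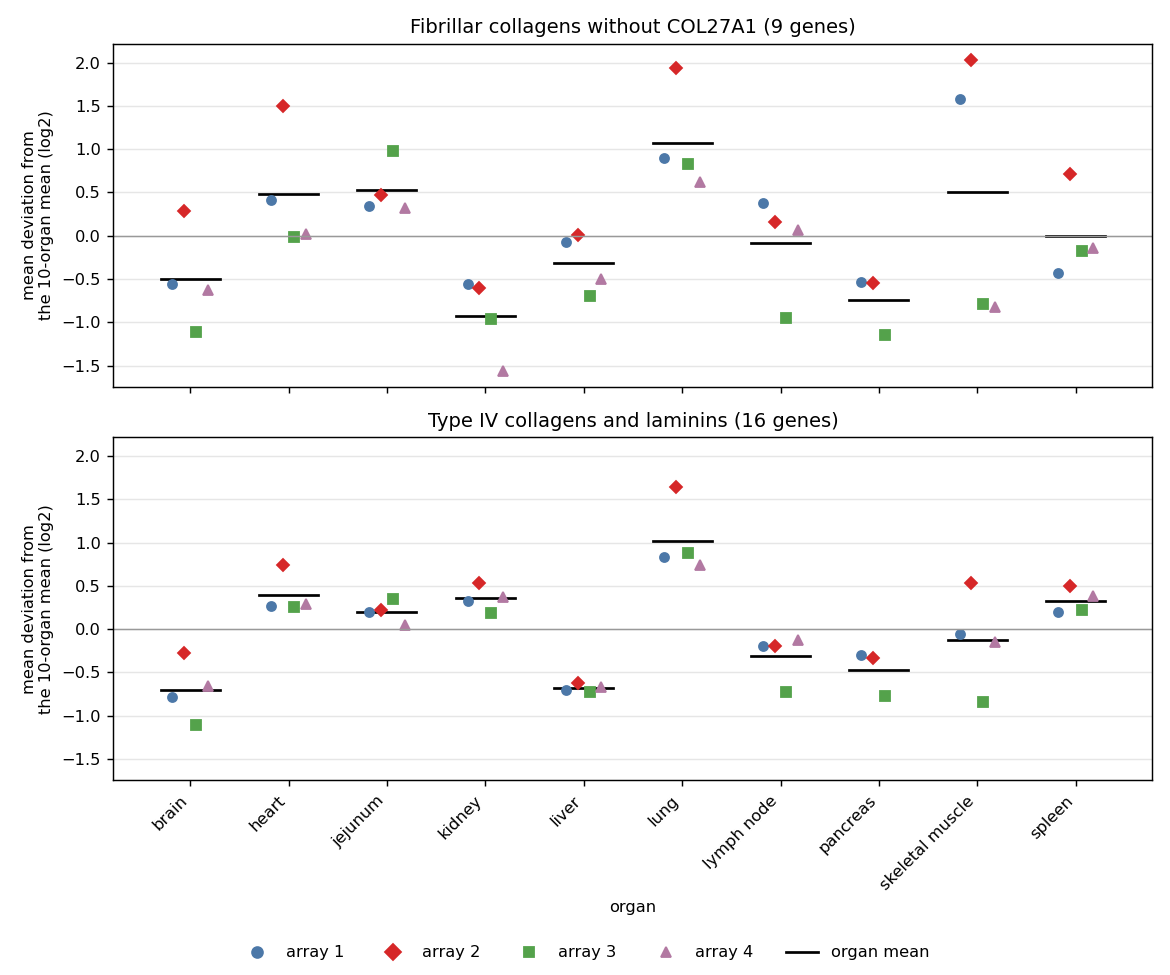
Mean deviation from the mean of the 10 organ means (log2, vertical axis) per array and organ, for 9 fibrillar collagen genes in the upper panel and 16 basement membrane genes in the lower one, with a line at the organ mean. The 4 kidney arrays are below 0 in the upper panel and above 0 in the lower one, and the skeletal muscle arrays spread widely in the upper panel.

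The spread within organs was not the same for all array numbers. This was looked at after the values had been seen. Array 2 was the highest of its organ in 10 of 10 organs for COL3A1 and COL4A1 and in 9 of 10 for COL1A1, where jejunum array 4 was higher. COL1A1 was at 11.52 in heart array 2, against 8.10 to 8.99 in the other 3, and at 10.52 in spleen array 2, against 6.96 to 7.12. Array 2 exceeded the mean of the other arrays of its organ by a median factor of 4.65 for COL1A1, 4.66 for COL3A1 and 2.92 for COL4A1.

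Array 2 was highest in at least 9 organs for 10 of the 130 member probesets and for 103 of all probesets (0.24%, or 0.462% of those with an organ above 5). Its mean deviation from the organ mean was 1.67 for COL3A1, 1.63 for COL1A1, 1.19 for COL4A1, 1.12 for COL1A2 and 0.93 for COL4A2. Array 3 deviated by -1.05, -0.87, -0.98, -1.05 and -0.83 for the same genes. Among chains called in 1 or more organs the size varied, with a mean deviation of array 2 of 0.62 for LAMB1, 0.08 for LAMA3 and 0.04 for COL4A3. The median over genes was 0.51 for the 10 fibrillar collagens, COL27A1 included, 0.10 for the basement membrane chains and -0.01 for all genes.

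In other gene lists the median deviation of array 2 was smaller in size than in the fibrillar collagens. It was 0.13 for the 22 genes of collagen processing, 0.18 for the 7 fibril-binding proteoglycans and 0.29 for the 8 cell division genes, against 0.04 for the 8 fibroblast markers and -0.32 for the 8 smooth muscle markers. In skeletal muscle, where arrays 1 and 2 were high for COL1A1 and COL3A1, fibroblast markers averaged 6.42 and 6.37 in these arrays and 4.08 and 4.91 in arrays 3 and 4. Their part in the spread was not tested. With all arrays numbered 2 left out, 39 of the 130 probesets were called by the F test.

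Genes that make, bind or cut the chains were read beside them from lists. Of 22 measured genes for collagen processing and crosslinking, 13 were called by the F test (60.9% of all genes were) and 5 were higher in lung (8.59% of all genes), with 0 lower. SPARC, a collagen-binding matrix protein, was at 11.96 ± 0.32 in lung and 7.46 in pancreas. P4HA2, a subunit of the enzyme that hydroxylates proline in collagen, was highest in jejunum (8.06 ± 0.18, difference 2.55, adjusted p = 7.9e-11). Of the 7 small proteoglycans that coat fibrils, 3 were higher in lung (8.59% of all genes), with a median difference of 2.72. OGN was at 8.80 ± 0.66 in lung (difference 4.50, adjusted p = 2.2e-08), and LUM at 10.39 in heart and 10.35 in lung.

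Of 9 measured genes for proteins that link the basement membrane, 5 were called by the F test, against 60.9% of all genes. HSPG2, the heparan sulfate proteoglycan perlecan, was highest in spleen (9.83 ± 0.54, adjusted p = 5.2e-07) and lowest in pancreas (6.72). DAG1, the laminin receptor dystroglycan, was highest in heart (8.73 ± 0.28, adjusted p = 4.7e-11) and skeletal muscle (8.38). Of 13 measured receptors for collagen and laminin, 11 were called by the F test (60.9% of all genes), 5 were higher in lung (8.59%) and 4 lower in liver (7.09%).

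ITGA6, the integrin chain of epithelial laminin receptors, was highest in jejunum (10.82 ± 0.48) and lung (9.41) and lowest in liver (3.62). ITGA7, the laminin receptor of muscle, was highest in heart (9.72 ± 0.49) and skeletal muscle (9.41). Of 8 matrix proteases and inhibitors, 5 were higher in lung (8.59% of all genes), with a median difference of 1.76. TIMP3 was at 9.97 ± 0.25 in lung and 9.55 in spleen, and TIMP1 at 9.51 ± 0.30 in lung and 9.45 in spleen.

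Several probesets of a gene did not always tell the same story. Of the 46 genes, 37 have more than 1 probeset, and 10 have more than 1 that was called and had an organ above 5. In 6 of those 10 all such probesets had the same highest organ. LAMB1 and LAMB2 were among the exceptions, their probesets having kidney, heart or lung on top. For LAMB1, 1 probeset was at 7.51 ± 0.50 in kidney and 5.72 ± 1.30 in heart, and another at 8.50 in kidney and 8.58 in heart.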

How the data were processed

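RNA of 10 organs (39 arrays) was read on Affymetrix Canine 2.0 arrays. The deposited values are log2 values per probeset, which the authors made in Partek 6.4 with the RMA method: probe values were adjusted for their GC content and sequence, corrected for background, made equal in distribution on the 39 arrays by quantile normalization and summarised by median polish. Per the methods, 1 pancreas array was left out before. The methods' model also used the scan date, which the labels do not give, so it could not be used here. Quantile normalization gives all arrays 1 distribution, so a shift of an organ's whole RNA cannot be seen.

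Organs were taken from the labels. limma 3.58.1 (R 4.3.3) was fitted to all 42860 probesets and 39 arrays with 1 mean per organ, followed by a moderated F test over organs, each organ against the mean of the other 9, and the 45 pairs of organs. The p-values were adjusted by Benjamini-Hochberg over all probesets within a contrast and called at 0.001. The script was tested on simulated data first. Dim means no organ mean above 5. Arrays have no read depth, and their number limits the precision.

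Probeset symbols came from the platform annotation, which names 1 gene for 29254 probesets, several for 439 and none for 13167. A further probeset that names a collagen together with another gene was not used. All 46 symbols are in the RefSeq gene table, from which gene neighbours were read by order. Named were all fibrillar, type IV and laminin genes and the 8 other collagens with the widest range of organ means. Values per array were given for the 3 widest genes of each class and the 3 with the highest SD, and for further genes chosen after their values were seen. The members and lists were chosen with earlier results of these data known. Alternatives were an unmoderated variance, a variance trend, the array number as a block, equal medians over all probesets or over housekeeping genes (13 of 15 measured), dim probesets left out, 1 probeset per gene, arrays left out singly or by number, and other make-ups of the class averages.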

Additional observations from a re-analysis of the deposited data

Results flagged for a closer look

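For the genes whose values were read in full, the highest or lowest of the 4 arrays of an organ was checked for standing apart from the other 3, in 144 groups of a gene and an organ. Chance marks about 1 in 20 such groups when genes are unselected and groups are independent. These genes were chosen partly for a high SD and their groups share arrays, so no comparison with chance is made. Here 13 of 144 were marked. In 10 of them the array was a high array 2.

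Among collagens, array 2 was at 12.1 for COL1A2 in lung (others 10.65 to 10.80), 11.95 for COL4A1 in lung (9.81 to 10.16), 10.52 for COL1A1 in spleen (6.96 to 7.12), 7.93 for COL12A1 in skeletal muscle (3.32 to 3.95) and 6.84 for COL27A1 in kidney (3.75 to 4.12). Among laminins, array 2 was at 10.15 for LAMA4 (others 9.40 to 9.49), 7.48 for LAMC1 (6.39 to 6.52) and 6.73 for LAMA1 (3.88 to 4.07) in heart, at 9.09 for LAMB1 in lung (7.97 to 8.02) and at 5.14 for LAMA3 in spleen (4.39 to 4.48).

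The remaining 3 groups were LAMA4 in lymph node array 3, low at 7.32 (others 9.35 to 9.75), and COL4A3, high at 4.74 in brain array 1 (others 3.36 to 3.57) and at 3.4 in spleen array 3 (others 3.29 to 3.30).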

How the results depend on the processing

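Of the 40 calls of a gene in an organ, 39 also passed with a variance trend, 39 with equal array medians, 34 with an unmoderated variance, and all 35 that were fitted without dim probesets. With housekeeping scaling 22 passed and 3 turned. Leaving out 1 array or array number kept 17 to 39 and turned 0. With the arrays of the called organ left out singly, 19 of the 40 passed every time.

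The array number was also fitted as a replicate block. The labels do not tie a number to a dog, and of 171 same-number pairs of arrays 101 had deviations correlated above 0.1 (from -0.29 to 0.46), although 30 of 39 arrays were closest to their own number. The median correlation was 0.14 for same-number pairs and -0.05 for pairs with different numbers. The replicate block gave 58 probesets by the F test in place of 49, 19 in brain in place of 11 and 9 in spleen in place of 5, and called COL3A1 (3.12) and COL4A1 (2.36) in lung.

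Housekeeping scaling gave 123 probesets by the F test, 28 in brain, 6 in lymph node, 92 in pancreas and 3 in skeletal muscle, and turned uncalled differences of COL24A1 in jejunum (-0.43), LAMA5 in brain (-0.45) and LAMC3 in spleen (-0.33). The housekeeping genes differed among organs themselves, with 10 of the 13 called by the F test. Without dim probesets there were 9 in pancreas and 3 in skeletal muscle. With 1 probeset per gene the counts were 23 by the F test, 4 in brain, 3 in heart, 5 in kidney, 3 in liver, 12 in lung, 1 in lymph node, 3 in pancreas, 2 in skeletal muscle and 3 in spleen, as there are fewer probesets. Without COL27A1 there was 1 in lymph node in place of 2. Without the 5 arrays with markers of another organ there were 3 in brain, 19 in kidney, 4 in lymph node, 28 in pancreas and 12 in spleen. Skeletal muscle, with a single array in that fit, is not counted.

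With 1 array or array number left out, the counts were 31 to 56 by the F test, 4 to 15 in brain, 1 to 19 in heart, 3 to 7 in jejunum, 6 to 14 in kidney, 4 to 11 in liver, 19 to 31 in lung, 1 to 4 in lymph node, 6 to 22 in pancreas, 1 to 9 in skeletal muscle and 1 to 10 in spleen. The lowest heart count and the lowest F count came without all arrays numbered 1.

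The fibrillar minus basement membrane difference with COL27A1 was 0.04 in brain, 0.06 in jejunum, -1.37 in kidney, 1.09 in liver, 0.61 in lung, 0.02 in lymph node and -0.42 in pancreas. As a median over genes it was 0.35 in brain, 0.18 in liver, 0.45 in lung and -0.64 in pancreas. With all probesets of a gene averaged it was -0.81 in kidney, 0.51 in liver, 0.17 in lung and -0.082 in pancreas, and with bright genes alone -1.89, 1.60, 0.93 and -0.58. Against type IV collagens alone it was 0.26 in brain, 0.28 in lung, 0.33 in lymph node and -0.041 in pancreas. Without COL27A1 it was 0.33 in jejunum, 0.36 in liver, 0.049 in lung and -0.27 in pancreas. Leaving out 1 array gave -0.04 to 0.10 in brain, -0.24 to 0.20 in heart, -0.02 to 0.12 in jejunum, -1.47 to -1.16 in kidney, 1.02 to 1.17 in liver, 0.56 to 0.64 in lung, -0.08 to 0.11 in lymph node, -0.45 to -0.37 in pancreas, 0.08 to 0.74 in skeletal muscle and -0.63 to -0.35 in spleen. The causes were not tested.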
